A study of Mus musculus with 2 samples.

Results

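Guanine nucleotide-binding protein (G protein) signalling genes were examined in 1F9 cells, a mouse thymoma line that lacks E2A proteins, in which E47 activity was restored for a few hours. The genes were chosen by symbol: chemokine receptors (Ccr and Cxcr), sphingosine phosphate receptors (S1pr), nucleotide receptors (P2ry), adhesion receptors (Adgr) and numbered Gpr receptors, the G protein subunits (Gna, Gnb and Gng), and the Rgs regulators. Of the 20289 probes on the array, 98 match these prefixes, and they stand for 96 of the 10208 named genes: 55 receptors, 25 G protein genes and 16 Rgs genes. Among these, Gnb1l and Rgs9bp match a prefix only: Gnb1l encodes a WD-repeat protein related to beta subunits, and Rgs9bp encodes an anchor for Rgs9.

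The study compared a pair of cell populations, each represented by 1 single-colour (Cy3) array of poly(A) RNA. The E47-ER cells had received a retrovirus for E47 joined to an oestrogen receptor part, and the bHLH-ER control cells one for the bHLH region joined in the same manner, without the activation domain at the N-terminus. Both populations were E2A-/-, both viruses also encoded human CD25, by which cells were selected on magnetic beads, and both were treated with 4-hydroxytamoxifen (4-OHT) for 6 hours from 1 day after infection. The control thus carries a DNA-binding fusion protein, the inducer and the CD25 marker as well, and array data from uninfected or untreated cells are not analysed here. All cells come from 1 line. With 1 array per construct no p-value or SE can be given, and every difference below is a description of these arrays.

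Heptahelical receptors act by exchanging the nucleotide on a heterotrimeric G protein, whose alpha and beta-gamma parts then act on enzymes, channels and exchange factors. Rgs proteins speed up GTP hydrolysis by alpha subunits and so shorten the signal. In the thymus, chemokine receptors that couple to Gi steer precursors between cortex and medulla, and the sphingosine phosphate receptor S1pr1 is required for mature cells to leave. E47 belongs to the E proteins, which bind the E-box CANNTG in DNA and direct early T cell development.

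The deposited intensities are scaled and on a linear scale, with medians of 0.950 with the control and 0.939 with E47-ER. Differences are given as E47-ER minus control, in log2 units after each array was centred on its own median. A gene counted as measured if its average level was no lower than the median probe, a limit of 1.03 in control intensity and 1.02 in E47-ER intensity. It was met by 5563 named genes. Different probes of one measured gene gave differences with a pooled SD of 0.21 (95% interval 0.17 to 0.27, 39 genes), which does not include the spread between cultures. The chosen genes that were measured have 1 probe each, so this SD comes from other genes, and no repeat probe checks their values. The T lineage identity of the line was checked first: all 11 T lineage markers with a probe were measured, among them Cd3g (64.8 and 98.0 on the control and the E47-ER array) and Thy1 (52.9 and 68.5). The summed intensity of the 11 was 319 with the control and 473 with E47-ER. Differences were positive for 9 and negative for 2, Cd3e (23.1 and 16.4) and Zap70 (18.3 and 16.1). Of 6 NK and cytotoxic markers none was measured (summed intensities 0.551 and 0.418 over the 5 with positive values). Of 7 myeloid markers 1 was (sums 2.09 and 2.63). Of 7 B lineage markers 5 were (sums 21.3 and 20.97), with Vpreb1 higher (2.14 and 4.36) and 4 lower. Of 4 fibroblast markers 2 were (sums 32.2 and 22.1, mostly Vim, which T cells also express).

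Of the 96 genes, 37 were measured, and 1 of them, Adgrg1, was at least 2-fold higher with E47-ER (1.35% of all measured genes were). None was at least 2-fold lower (0.270% of all measured genes), so 36 of 37 lay within 2-fold. At 1.5-fold, a limit added after the data were seen, 4 were higher (5.41% of all measured genes): Adgrg1, Gpr83, Gpr162 and Rgs10. None was 1.5-fold lower (1.24% of all). Positive differences were found in 20 of the 37, against 66.7% of all measured genes. The median difference was 0.07 for the 37 and 0.11 for all measured genes. In these counts the 96 genes as a whole were close to the background, and what follows is mainly about single genes.

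**Figure D1:**
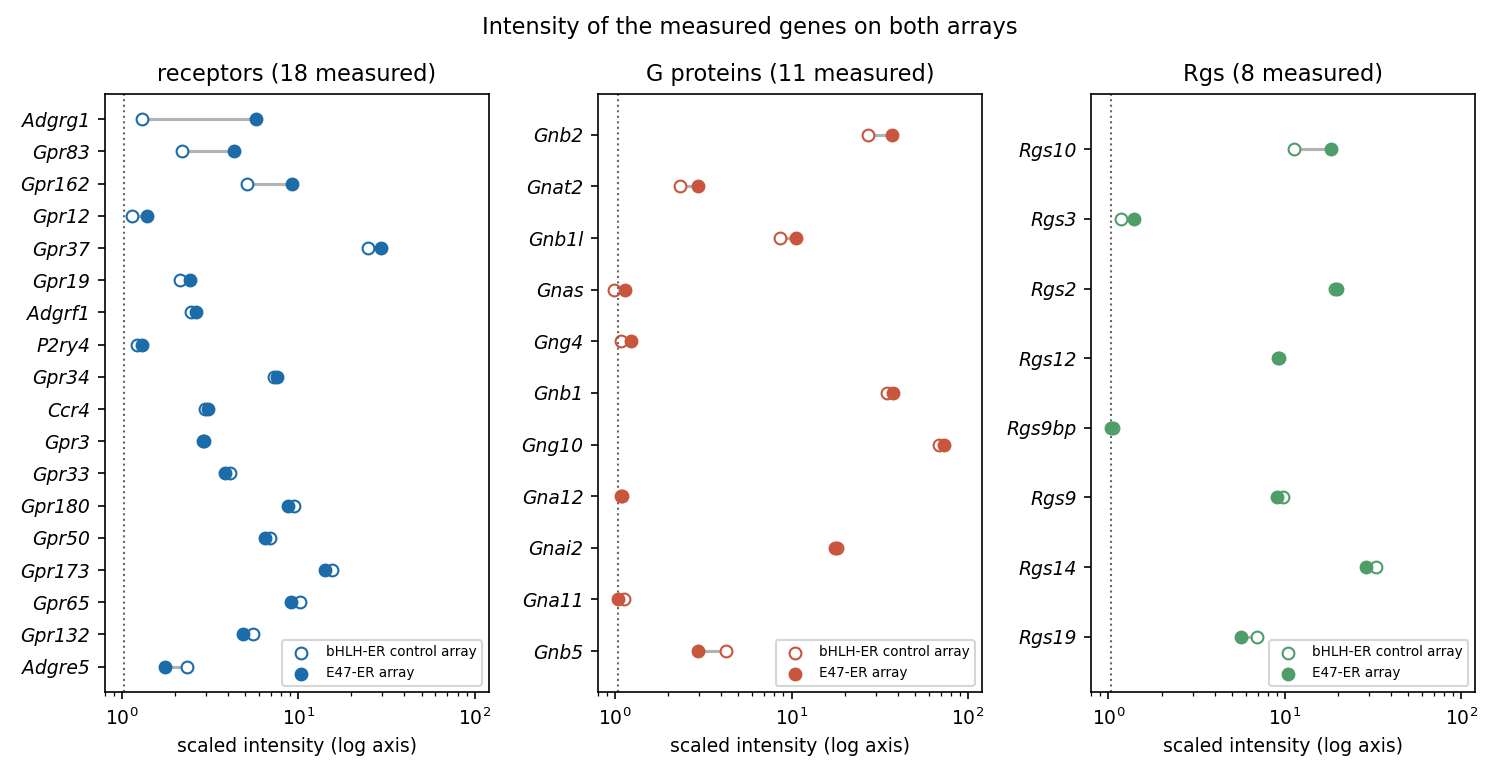
Scaled intensity (log axis) of the 37 measured genes on the bHLH-ER control array (open circles) and the E47-ER array (filled circles), joined by a grey line and ordered by difference within receptors, G proteins and Rgs genes; the dotted line marks the level limit on the control array. Adgrg1 has the widest gap (1.30 and 5.79), followed by Gpr83, Gpr162 and Rgs10, while most pairs of circles touch or overlap.

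Adgrg1 (Entrez gene 14766), also called GPR56, encodes an adhesion receptor with a long extracellular part; it is known from cytotoxic lymphocytes and from development of the cerebral cortex. Its intensity was 1.30 with the control and 5.79 with E47-ER, both above the level limit. The difference was 2.16 on the log2 scale, or 4.48-fold, the 6th largest of the 5563 measured genes. It stayed past 2-fold under 75th percentile scaling (2.06), quantile normalization (2.11), loess on level (2.11) and with 1 added to each value before log2 (1.57). The robust SD of the log2 difference among all probes of similar level was 0.27. None of the 5 NK and cytotoxic markers with positive values reached the level limit on either array. Such low values do not show that the transcripts were absent, and the source of the Adgrg1 difference was not tested. The other measured adhesion receptors had small or negative differences. Adgre5 (CD97), a leukocyte receptor for CD55, was 1.33-fold lower (2.35 and 1.75, difference -0.41). Adgrf1 had nearly equal intensities of 2.47 and 2.63 (difference 0.10, which turned to -0.005 under 75th percentile scaling). The remaining 5 adhesion receptor genes were under the level limit.

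E-boxes were looked up in the promoter windows of the genes with the largest differences, because E47 binds this motif. The windows are RefSeq sequences of GRCm38.p6, from 250 bases before to 50 after an annotated start site, and are printed 5′ to 3′ along the strand of the gene with every CANNTG in capitals. For Adgrg1 there are 2 windows, at chr8:94976859-94977158 and chr8:94984149-94984448 (plus strand). Gpr83 (chr9:14859960-14860259, plus strand) and Rgs10 (chr7:128418123-128418422, minus strand) are shown as the next higher genes with a window, and Gnb5 (chr9:75306038-75306337, plus strand) as the measured gene with the lowest difference.
Adgrg1 first window: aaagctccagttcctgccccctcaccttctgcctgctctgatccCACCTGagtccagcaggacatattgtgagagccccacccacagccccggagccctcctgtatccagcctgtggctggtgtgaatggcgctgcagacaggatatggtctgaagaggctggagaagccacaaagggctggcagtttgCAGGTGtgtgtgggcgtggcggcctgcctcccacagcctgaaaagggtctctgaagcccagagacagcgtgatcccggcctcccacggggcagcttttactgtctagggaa
Adgrg1 second window: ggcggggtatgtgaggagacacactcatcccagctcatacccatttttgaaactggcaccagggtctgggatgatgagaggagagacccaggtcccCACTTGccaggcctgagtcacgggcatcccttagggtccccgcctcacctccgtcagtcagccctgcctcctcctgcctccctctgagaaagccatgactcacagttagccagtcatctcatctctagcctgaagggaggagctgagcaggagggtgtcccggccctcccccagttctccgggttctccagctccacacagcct
Gpr83: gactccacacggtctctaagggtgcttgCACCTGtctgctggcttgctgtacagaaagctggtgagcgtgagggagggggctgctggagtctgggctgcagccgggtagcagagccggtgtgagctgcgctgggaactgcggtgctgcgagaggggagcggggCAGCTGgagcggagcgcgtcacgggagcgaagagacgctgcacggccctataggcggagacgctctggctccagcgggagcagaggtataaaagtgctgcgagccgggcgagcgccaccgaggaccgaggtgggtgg
Rgs10: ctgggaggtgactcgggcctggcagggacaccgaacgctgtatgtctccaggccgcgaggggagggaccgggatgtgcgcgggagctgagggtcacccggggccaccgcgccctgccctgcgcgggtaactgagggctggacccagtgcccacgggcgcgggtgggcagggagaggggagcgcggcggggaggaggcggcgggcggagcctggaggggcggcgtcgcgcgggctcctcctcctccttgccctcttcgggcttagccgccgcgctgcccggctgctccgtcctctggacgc
Gnb5: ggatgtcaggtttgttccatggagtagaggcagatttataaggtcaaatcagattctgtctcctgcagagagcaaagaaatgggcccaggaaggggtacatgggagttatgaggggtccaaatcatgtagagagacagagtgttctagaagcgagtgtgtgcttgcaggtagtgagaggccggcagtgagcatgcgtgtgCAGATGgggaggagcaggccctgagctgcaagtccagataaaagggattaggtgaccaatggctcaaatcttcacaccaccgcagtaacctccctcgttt

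The first Adgrg1 window holds CACCTG, starting 206 bases before the start site, and the reverse complement of that hexamer, CAGGTG, starting 61 bases before it. The second holds only CACTTG. Gpr83 has CACCTG 222 bases and CAGCTG 87 bases before the start site, Gnb5 has CAGATG 50 bases before it, and Rgs10 has no CANNTG in its window. The general motif is common: CANNTG was present in 72.3% of all 32851 windows in the table. One form that E47 is known to prefer is CAGCTG, and another is CACCTG, which reads as CAGGTG on the opposite strand. Each of the 3 is also a CANNTG. One or more of them occurred in some window of 35.9% of the 27025 genes with a window. These genes, like the count of all windows, are not limited to genes on the array or measured here. The share among all measured genes was not computed. Of the 31 measured genes of the families that have a window, 16 (51.6%) held one of them. Genes with more windows have more chances of a match, and the 31 genes have 44 windows. Counted by window, one of the 3 forms was present in 43.2% of the 44 and in 32.9% of all windows. The general CANNTG was present in 70.5% of the 44, against 72.3% of all windows. The 16 genes with a preferred form had a median difference of 0.15 (range -0.17 to 2.16). The 15 without had a median of -0.0002 (range -0.52 to 0.71), so the ranges overlap from -0.17 to 0.71. The median of all measured genes was 0.11. A gene was counted as having a preferred form if any of its windows held one, which favours genes with more windows. A link between motif and difference was not tested. A match in such a window describes letters only; no binding data are part of the study.

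Gpr83 (Entrez gene 14608), a receptor known from regulatory T cells and brain, had an intensity of 2.198 with the control and 4.34 with E47-ER. Its difference of 0.996 (1.99-fold) was just short of the 2-fold rule and ranged down to 0.89 under 75th percentile scaling and 0.75 with 1 added before log2. Gpr162 (Entrez gene 14788), an orphan receptor, went from 5.13 to 9.24, a difference of 0.86 (1.82-fold). Adgrg1, Gpr83 and Gpr162 were each higher on the E47-ER array under all 5 scalings. The scalings shift differences of this size too little to change a sign.

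The other measured Gpr receptors stood close to equal on both arrays. Of 13 measured, the other 11 had differences between -0.17 and 0.29. Gpr37, an orphan receptor best known from brain, had intensities of 24.8 and 29.6 (difference 0.27). Gpr65 and Gpr132, which respond to acid and are expressed in lymphoid cells, had 10.3 and 9.14, and 5.53 and 4.89, with differences of -0.15 and -0.17. Gpr34, a receptor for lysophosphatidylserine, had 7.27 and 7.62. Gpr3 and Gpr12, related receptors that raise cAMP without an added ligand, had 2.92 and 2.89 (difference near 0) and 1.14 and 1.38 (0.29), respectively. The small negative differences of Gpr173, Gpr180, Gpr50 and Gpr33 ranged from -0.11 to -0.08, within the SD of 0.21 between probes.

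Chemokine receptors were mostly under the level limit. Of 13 with a probe, Ccr4, the receptor for Ccl17 and Ccl22, was the one measured, with 2.98 with the control and 3.09 with E47-ER (difference 0.07, or -0.04 under 75th percentile scaling). Ccr9, through which thymocytes respond to Ccl25, lay just under the limit by its mean level but not on the control array. Its intensities were 1.05 and 0.837, a difference of -0.31. Just inside the limit at its other side stood Rgs9bp, with 1.06 and 1.03. Cxcr5, a receptor of follicular B and T cells, had 0.753 and 0.857, Ccr8 had 0.584 and 0.439, and Ccr2, a receptor of monocytes, had 0.412 and 0.679. Cxcr6 showed the widest gap among them, from 0.632 to 0.084 (difference -2.89), at a level where the robust SD of all probes was 0.55; with 1 added before log2 the difference was -0.58. For the remaining 7, Ccr7 among them, no intensity exceeded the 0.306 of Cxcr2 on the control array. Ccr1, Ccr1l1, Ccr2 and Ccr3 are related neighbouring genes, and no probe sequences were used here to see whether the transcripts are told apart.

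None of the 4 sphingosine phosphate receptors was measured. S1pr1, the exit receptor, had intensities of 0.046 and 0.079, and S1pr4, which is expressed in lymphoid cells, 0.217 and 0.177. S1pr3 stood at 0.514 and 0.468 and S1pr5, known from NK cells, at 0.017 and 0.081. The table has no detection calls, so such values do not show that a transcript was absent. Among nucleotide receptors, P2ry4, which binds uridine nucleotides, was measured with near equal values (1.22 and 1.295), and P2ry1 was among those under the limit.

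Under the level limit, 12 of the 53 genes with positive values on both arrays were at least 2-fold apart. Among all named genes under the limit the share was 18.9%, and in the dimmest of 10 level bins the robust SD of the difference was 1.72. The 12 were Adgra2, Adgrl4, Adgrv1, Ccr10, Cxcr6, Gpr21, P2ry1, S1pr5, Gng8, Rgs1, Rgs7 and Rgs20. Gng8 was the only one to exceed the limit on an array: its intensity was 0.443 with the control and 1.35 with E47-ER, a difference of 1.62, or 3.07-fold. Gng8 encodes a gamma subunit best known from olfactory and vomeronasal neurons. The difference shrank to 0.71 with 1 added before log2. The other 11 had intensities of at most 0.632. Another 6 genes, Ccr1l1, Gnaq, Gnat1, Gnao1, Rgs4 and P2ry12, had a missing value or one at or below 0 on an array.

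**Figure D2:**
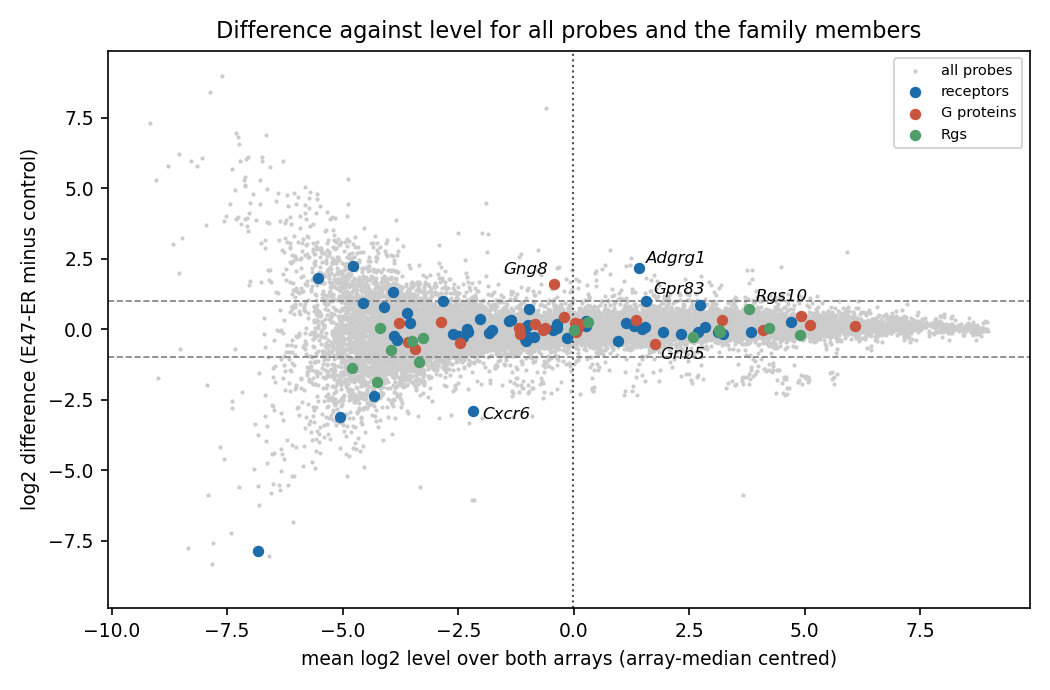
Log2 difference (E47-ER minus control) against mean log2 level over both arrays for all probes with positive values (grey) and for the probes of receptors, G proteins and Rgs genes (coloured); dashed lines mark 2-fold and the dotted line the level limit. Right of the limit Adgrg1 lies past 2-fold and Gpr83 on the line, while left of it the scatter of all probes widens and takes in most of the coloured points past 2-fold.

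G protein subunit genes showed small differences. Of 25 genes, 11 were measured, all within 1.5-fold, with 7 positive and 4 negative differences and a median of 0.14. The 11 include Gnb1l, which matches a prefix only (8.55 and 10.7, difference 0.33). Of all 5563 measured genes 5193 lay within 1.5-fold and 66.7% were positive, with a median of 0.11. Beta subunits spanned the widest range. Gnb2 went from 27.1 to 36.9, a difference of 0.46 (1.38-fold), and Gnb1, the other common beta subunit, from 34.7 to 37.8 (0.14). Gnb5, the atypical beta subunit that pairs with Rgs proteins of the R7 family, was 1.43-fold lower (4.24 and 2.94, difference -0.52), which placed it 94th from the lowest among all measured genes. Gnb2 was the 547th highest of the measured genes. The differences of Gnb2 and Gnb5 exceeded the SD of 0.21 between probes of other genes, which leaves out the spread between cultures. Over the 5 scalings Gnb2 ranged from 0.34 to 0.46 and Gnb5 from -0.62 to -0.52. Such shifts are too small to change either sign.

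Alpha subunits were near equal on both arrays. Gnai2, the main Gi alpha subunit of lymphocytes and the partner of chemokine receptors, had 18.1 and 17.7 (difference -0.02). Gnas, which stimulates adenylyl cyclase, had 0.979 and 1.14 (0.23). The Gnas control intensity was under the limit of 1.03, and its E47-ER intensity brought its mean level over the limit. Gna11 of the Gq family and Gna12 of the G12 family had differences of -0.10 and -0.005. These 3 lay close to the level limit, so a small difference between arrays weighs more there. Gnat2, the alpha subunit of cone photoreceptors, had 2.35 and 2.94 (0.34); what the probe detects in a thymoma line was not tested. Of the gamma subunits, Gng10 had 68.8 and 72.96 (0.10) and Gng4 1.08 and 1.22 (0.19). The other subunits with positive values were under the limit.

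Rgs genes had a median difference of -0.02 over 8 measured of 16, with 3 positive and 5 negative differences. Over all measured genes the median was 0.11 and 66.7% were positive. Rgs10 (Entrez gene 67865), a small Rgs protein that acts on Gi alpha subunits, went from 11.2 to 18.2, a difference of 0.71 (1.64-fold). It was the 173rd highest of the measured genes and stayed between 0.60 and 0.71 over all scalings. The 2 other members of its R12 family differed from it: Rgs14, which also binds inactive Gi alpha subunits, had 32.9 and 28.7 (-0.19), and Rgs12 had 9.30 and 9.15 (-0.01). Rgs19, of the RZ family, was 1.21-fold lower (6.92 and 5.66, difference -0.28). Rgs2, which acts on Gq alpha subunits, had 19.3 and 19.7 (0.04, but negative under each of the 4 other scalings), Rgs3 had 1.17 and 1.39 (0.26), and Rgs9 had 9.71 and 9.02 (-0.09). Rgs1, which limits chemokine receptor signalling in lymphocytes, was under the limit with 0.060 and 0.023.

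The signs of the small differences depend on the scaling. Setting the arrays' 75th percentiles equal moved the median of all measured genes from 0.11 to -0.002 and the number of positive differences among the 37 from 20 to 14. Over 5 scalings 14 of the 37 were positive in each and 17 negative in each. The other 6 (Adgrf1, Ccr4, Gng10, Gpr34, P2ry4 and Rgs2) changed sign.

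**Figure D3:**
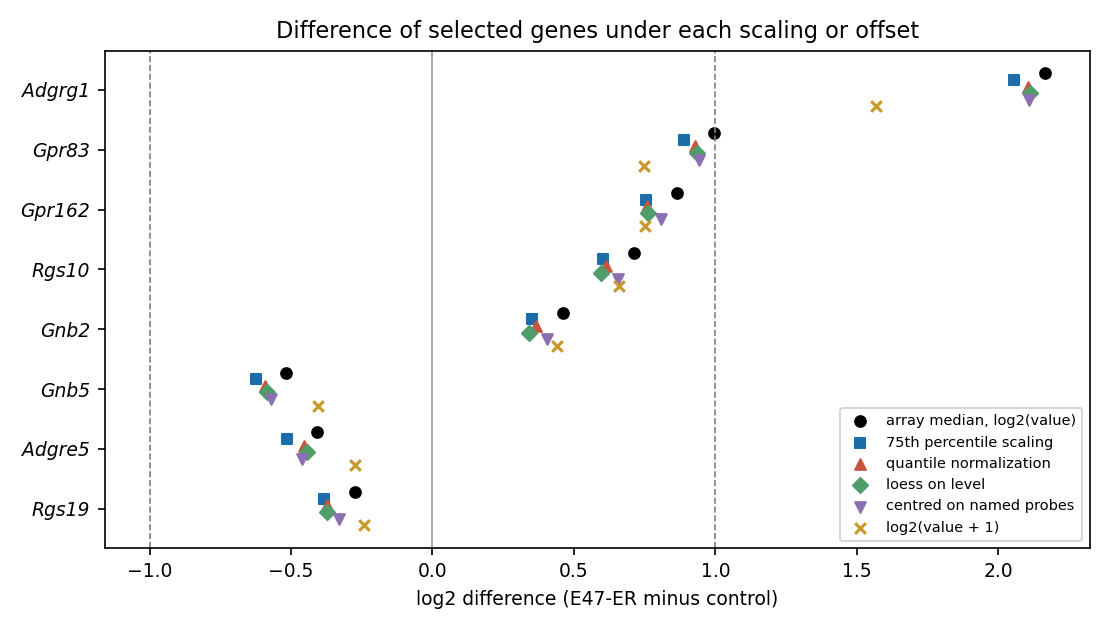
Log2 difference (E47-ER minus control) of 8 genes under the array-median scaling, 4 other scalings and an offset of 1 before log2; dashed lines mark 2-fold. Adgrg1 stays past 2-fold under each (1.57 to 2.16) and Gpr83 stays below it. No gene shown changes sign, because the scalings shift differences of this size too little. The 6 measured genes that changed sign between scalings are not shown.

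Genes up- and downstream of these receptors were described with 7 lists, beside a median of 0.11 for all measured genes. Among heptahelical receptors outside the chosen prefixes, 26 of 70 with a probe were measured, with a median of -0.04. Of the 26, 1 was 2-fold higher (1.35% of all measured genes were) and none 2-fold lower (0.270%). The one was Sstr2, a somatostatin receptor coupled to Gi, which went from 1.53 to 4.06 (difference 1.42, 2.67-fold, and 1.01 with 1 added before log2). Bdkrb2, a bradykinin receptor, was under the limit by its mean level but not by its E47-ER intensity (0.045 and 10.4, difference 7.86, noted after its values were seen). The lowest measured gene was Adcyap1r1, the PACAP receptor (4.38 and 2.87, -0.60). Of 35 chemokine ligands 6 were measured, with the largest difference at Ccl2 (-0.32). Receptor kinases and arrestins had a median of -0.11 over 4 genes; Txnip, an arrestin-fold protein that restrains glucose uptake, was 1.66-fold lower (2.07 and 1.23), and Arrb2, a beta-arrestin, stood at 0.28.

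In the cAMP list, 10 of 24 genes were measured with a median of 0.08, and Pkig, an inhibitor of protein kinase A, had the largest difference (8.70 and 12.5, 1.45-fold). Of 4 measured genes for phospholipase C beta, PI3K gamma and diacylglycerol kinases, 1 was 2-fold higher (1.35% of all measured genes were). It was Dgke, which phosphorylates diacylglycerol (0.913 and 1.88, 2.08-fold). Its control intensity was under the limit of 1.03, and its E47-ER intensity brought its mean level over the limit. The log2 difference fell short of 2-fold when 75th percentiles were set equal (0.95) and with 1 added before log2 (0.60). Pik3cg, the kinase that beta-gamma subunits activate, had a difference of -0.37. G protein chaperones and non-Rgs regulators had a median of -0.02 over 13 genes; Gpsm3, which binds Gi alpha subunits, was 1.42-fold lower (15.9 and 11.1). In the sphingosine phosphate list, 10 of 11 measured genes lay between -0.36 and 0.29. The exception was Foxo1, a forkhead factor included as a regulator of S1pr1 through Klf2, which was 2.88-fold lower (5.83 and 2.003). Klf2 itself was under the limit by its mean level but not on the control array (1.54 and 0.618, difference -1.31, also noted after its values were seen). These lists describe 2 arrays, and no list was tested against other genes.

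**Figure D4:**
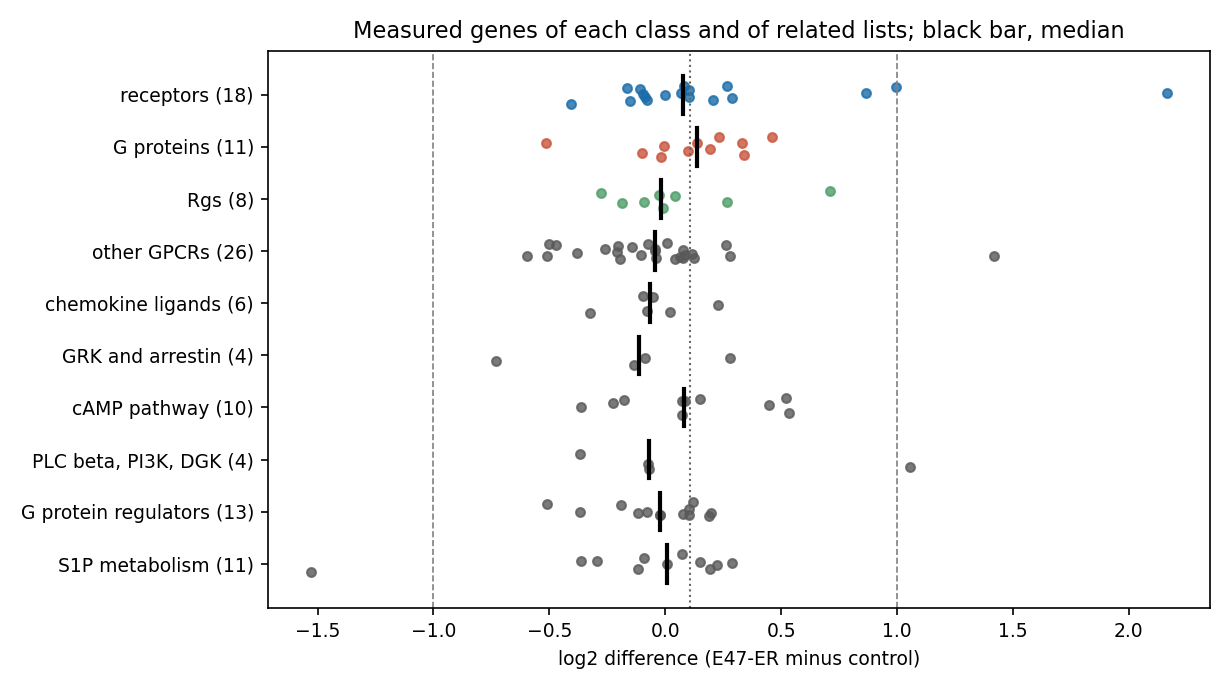
Log2 difference (E47-ER minus control) of each measured gene (points) in the 3 classes and the 7 related lists, with the number of genes in brackets; black bars are medians, the dotted line is the median of all measured genes (0.11) and dashed lines mark 2-fold. The points past 2-fold are Adgrg1, Sstr2, Dgke and Foxo1.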

How the data were processed

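Poly(A) RNA of 1F9 cells with E47-ER or the bHLH-ER control was hybridised to 1 Cy3 array each, per the labels; groups were taken from the titles, since the descriptions do not tell the constructs apart. The intensities deposited by the authors are linear and range from -0.0829 to 555, with medians near 1; from the values, they had been background-subtracted and scaled. The sources used here do not give the scanner, background method, scaling or genome build: each is not stated. The number of arrays limits the precision.

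Of 20289 probes, 668 without a positive value on both arrays were left out. Log2 intensities of the other 19621 were centred on each array's median, and probes of one gene were averaged. Symbols came from RefSeq (GRCm38.p6) by Entrez ID, or from the platform annotation where no ID matched, and 10349 probes were named. The level limit for a measured gene was the median over all probes, and the call rule was 2-fold. No test was possible without replicates. Every measured member could be named; members under the limit were named where 2-fold apart or where they are chemokine or sphingosine phosphate receptors, and those without a positive value on both arrays were listed. From each list, up to 3 genes per direction past 1.5-fold were named, or else the gene with the largest difference; further list genes given (Arrb2, Pik3cg, Bdkrb2, Klf2) were picked with their values known. The members and lists were chosen with earlier results of these data known. One further list is not reported here. The calculation was tested on simulated arrays. Alternatives were 4 scalings, other level filters, the brightest probe per gene and an offset of 1; a filter passed on either array, a 1.5-fold rule and the omission of Gnb1l and Rgs9bp were added after the data were seen. Python 3.11.15, pandas 2.3.3, numpy 2.4.6, statsmodels 0.14.6 (loess) and matplotlib 3.10.9 were used.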

Additional observations from a re-analysis of the deposited data

How the results depend on the processing

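No paired analysis was possible because each construct has 1 array, and for the same reason no replicate could be left out. The medians of receptors, G proteins and Rgs genes moved by less than the SD of 0.21 between probes under every alternative run. Taking the brightest probe could not move them, since the measured genes of these classes have 1 probe each. Setting 75th percentiles equal shifts all genes by the same amount. The counts past 2-fold depended on the level filter. With the limit at the 25th percentile 1 receptor (Cxcr6) was lower and 1 G protein gene (Gng8) higher, and with the limit at the 75th percentile 0 of 7 receptors were higher, since Adgrg1 is under that limit. With no filter 5 receptors were higher and 4 lower, 1 G protein gene was higher and 3 Rgs genes lower, all but Adgrg1 from the dim range. When the limit had to be reached on either array, 1 G protein gene (Gng8) was higher. At 1.5-fold 3 receptors and 1 Rgs gene were higher. The cAMP list's median was 0.52 over the 3 genes left by the 75th percentile filter. Over all measured genes the split of calls was 75 higher and 15 lower, or 83.3% higher; it was 52 and 24 (68.4%) under 75th percentile scaling, 129 and 53 with the 25th percentile filter, 25 and 4 with the 75th, 496 and 420 (54.1%) with none, and 40 and 5 with 1 added before log2. Low signal limits every statement on chemokine and sphingosine phosphate receptors.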
